A study of Sus scrofa with 3 samples.

Results

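The 8 microRNA (miRNA) hairpins miR-335, miR-574, miR-455, miR-28, miR-582, miR-193a, miR-664 and miR-885 did not have the same more abundant arm at every stage of pig liver that was sequenced. They were chosen for that pattern from the read counts of the same libraries, as 8 of 677 hairpins named after a known miRNA, and their arm counts are therefore given as a description. Among the 195 hairpins that had 50 reads or more in every library, 19 (9.74%) had more 5p than 3p reads in at least 1 library and the reverse in another. These 19 hold all 8 described here and 11 others.

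Liver was taken from male pigs of the Jinhua breed on embryonic day 90 (E90), postnatal day 30 (P30d, labelled as the weaning stage) and postnatal year 7 (P7y, labelled as adult). No treatment or genetic change is named for any group, and breed, sex and organ were shared by all. The labels name 3 pigs per stage but give 1 library per stage, and pooling is not stated. Stage, animal and library therefore cannot be told apart, no difference has a replicate check, and no p-values between stages are given. Named hairpins had 9243601, 3622993 and 9920207 reads at E90, P30d and P7y, and the 8 hairpins held 0.242%, 0.219% and 0.186% of them. Arm levels are given as counts per 1000000 reads of named hairpins (CPM). Intervals are 95% and cover counting error only, and PCR makes reads that are not independent molecules.

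A miRNA hairpin is cut by the nucleases Drosha and Dicer into a short duplex with a strand from the 5′ side (5p) and a strand from the 3′ side (3p). Usually a single strand is kept by an Argonaute protein and the other is degraded, and the choice depends in part on how firmly each 5′ end is paired. The kept strand finds messenger RNAs mainly through its seed, bases 2 to 8 from its 5′ end, so the arms of a hairpin have different targets.

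The mature sequences come first because each hairpin carries a pair of different seeds whose relative abundance is the subject here. They are the representative reads of the E90 library, the read that stands for each arm in the deposited tables, in DNA letters as deposited, 5′ to 3′, with the seed in capitals.
miR-335-5p: tCAAGAGCaataacgaaaaatgt
miR-335-3p: tTTTTCATtattgctcctgacc
miR-574-5p: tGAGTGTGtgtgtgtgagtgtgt
miR-574-3p: cACGCTCAtgcacacacccaca
miR-455-5p: tATGTGCCtttggactacatcg
miR-455-3p: gCAGTCCAtgggcatatacact
miR-582-5p: tTACAGTTgttcaaccagttact
miR-582-3p: tAACCGGTtgaacaactgaaccc
miR-28-5p: aAGGAGCTcacagtctattga
miR-28-3p: cACTAGATtgtgagctcc
miR-193a-5p: tGGGTCTTtgcgggcgagatga
miR-193a-3p: aACTGGCCtacaaagtccc
miR-664-5p: cAGGCTAGgagaagtgattggat
miR-664-3p: tATTCATTtatctcccagcct
miR-885-5p: tCCATTACactaccctgcctct
miR-885-3p: aGGCAGCGgggtgtagtggat

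The 16 arms carry 16 distinct seeds, so the opposite arms of no hairpin share one. Of the 16 arms, 2 share a seed with an arm of another hairpin that averaged at least 10 CPM. miR-28-5p shares AGGAGCT with miR-708-5p, which had 51.0, 2.76 and 3.43 CPM at E90, P30d and P7y. miR-193a-3p shares ACTGGCC with miR-193b-3p, the product of its paralog, which had 108, 1221 and 239 CPM at the same stages. For miR-193a-3p, whose own level was 0.649, 19.3 and 2.02 CPM, most reads with this seed thus came from the paralog at every stage.

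The share of a hairpin's reads that came from the 5p arm is given with its exact Clopper-Pearson interval, and the arm balance is the log2 of the ratio of 5p to 3p reads, after adding 0.5 to both, so that a positive balance means more 5p. A switch was counted where the intervals of the 5p share lay on opposite sides of 50% in a pair of libraries. By this stricter count 4 of the 8 hairpins switched in at least 1 pair, namely miR-335, miR-574, miR-455 and miR-582, beside 13 of 195 (6.67%) of all measured hairpins. The other 4, miR-28, miR-193a, miR-664 and miR-885, had an interval that held 50% in at least 1 library, and their other intervals lay on a single side of it. Counted over copies of the representative read alone (the read that stands for an arm), miR-28 and miR-664 switched as well, both for P7y against E90 and miR-28 also for P30d against E90.

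**Figure D1:**
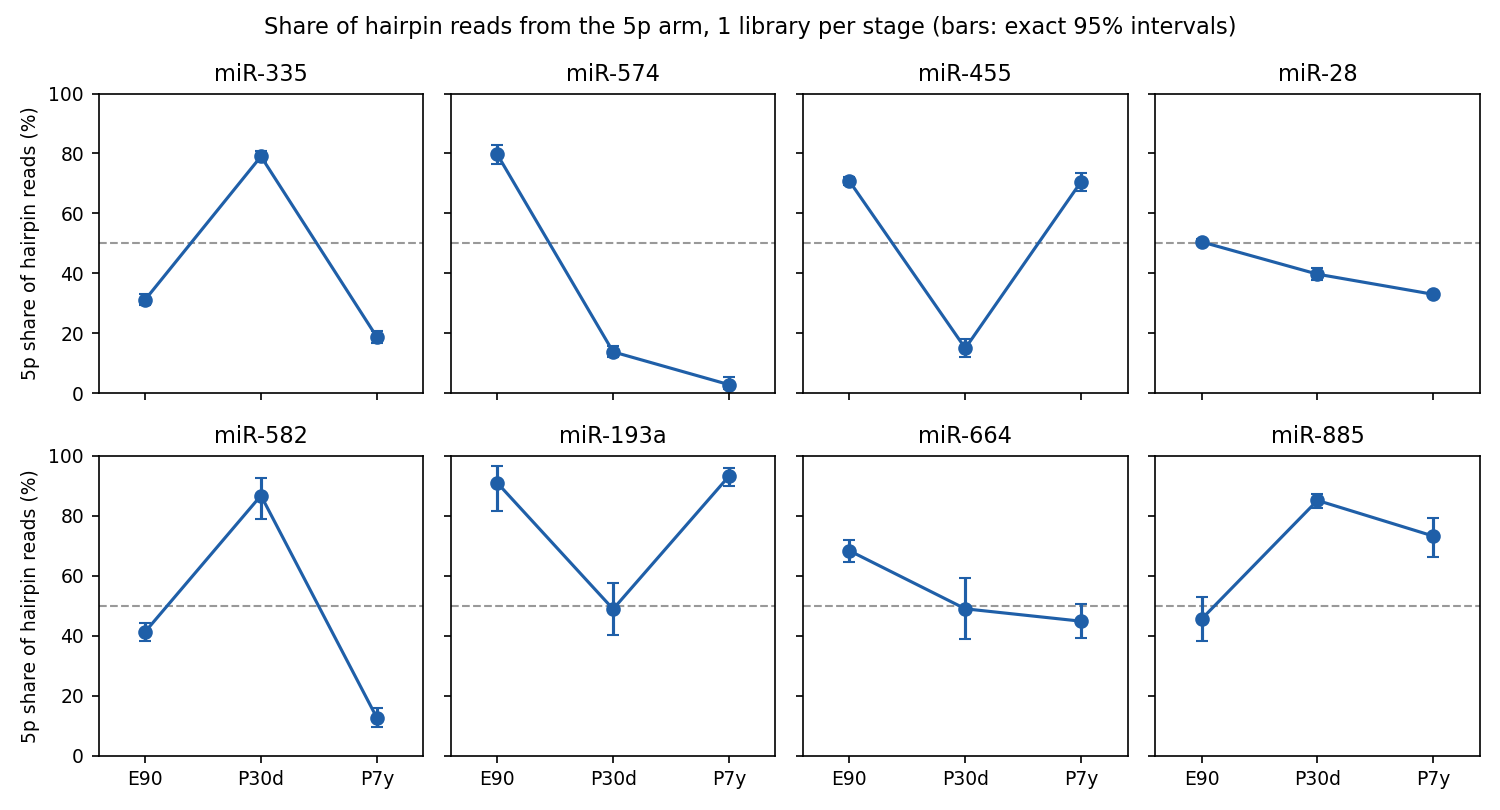
Share of hairpin reads from the 5p arm (y axis, percent) in the E90, P30d and P7y libraries (x axis) for each of the 8 hairpins, with exact 95% intervals as bars and equal arms as a dashed line at 50%. miR-335, miR-455 and miR-582 have their P30d share on the other side of the line from both other libraries, miR-574 has its E90 share there, and the intervals of miR-28, miR-193a, miR-664 and miR-885 touch the line in at least 1 library.

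miR-335, whose hairpin lies in the imprinted gene MEST and whose 5p arm is studied in human as a suppressor of breast cancer metastasis, had more 3p reads at E90, more 5p reads at P30d and more 3p reads at P7y. Its 5p arm had 762, 1754 and 246 reads and its 3p arm 1684, 466 and 1069 reads at E90, P30d and P7y. At E90 5p held 31.2% (29.3 to 33.0) of the reads, at P30d 79.0% (77.3 to 80.7) and at P7y 18.7% (16.6 to 20.9). P30d thus stood above both other libraries. The balance differed by 3.05 (interval 2.86 to 3.25) for P30d minus E90 and by -4.03 (-4.29 to -3.78) for P7y minus P30d. The 5p arm carried most of this, with 82.4, 484 and 24.8 CPM at E90, P30d and P7y, while the 3p arm lay between 108 and 182 CPM in all 3 libraries. For P7y over P30d the 3p arm had a log2 ratio of -0.26 under CPM and 0.81 under TMM, a second scaling.

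miR-574, whose 5p arm is a GU-rich repeat, had more 5p reads at E90 and more 3p reads at both later stages. Its 5p arm had 511, 196 and 9 reads and its 3p arm 130, 1225 and 307 reads at E90, P30d and P7y. The 5p arm held 79.7% (76.4 to 82.8) of the reads at E90 and 13.8% (12.04 to 15.7) at P30d, then 2.85% (1.31 to 5.34) at P7y. Of its E90 reads, 65.6% had no mismatch and 22.3% were copies of the representative read. The E90 balance was 1.97 over all reads, 1.59 over reads without a mismatch and 0.99 over representative reads, and 5p led in each. Over all reads of an arm miR-574 was the only one of the 8 hairpins that switched between the first and the last stage. Its balance difference was -6.99 (-8.24 to -6.06) for P7y minus E90. The steps differed in which arm moved. P30d and E90 had nearly the same 5p level, 54.1 and 55.3 CPM, a log2 ratio of -0.03 (-0.28 to 0.21), while the 3p arm had 338 CPM at P30d against 14.1 at E90, 24.0-fold higher (log2 ratio 4.59, 4.33 to 4.86). At P7y both arms were lower than at P30d, and 5p, at 0.907 CPM, by more than 3p, at 30.9 CPM.

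miR-455, whose hairpin lies in the collagen gene COL27A1 and which is known from cartilage in the mouse, had more 5p reads at the first and last stage and more 3p reads between them. Its 5p arm had 2711, 85 and 647 reads and its 3p arm 1119, 482 and 269 reads at E90, P30d and P7y. At E90 5p held 70.8% (69.3 to 72.2) of the reads, at P30d 15.0% (12.2 to 18.2) and at P7y 70.6% (67.6 to 73.6). For P7y minus E90 the balance difference was -0.01, with an interval of -0.24 to 0.22, but -0.29 over reads without a mismatch and -0.68 over representative reads, both outside that interval. At the same time the hairpin as a whole was lower at P7y, with 92.3 CPM over both arms against 414 at E90. For P30d against E90 the 5p arm differed more, at 23.5 CPM at P30d against 293 at E90, a log2 ratio of -3.64 (-3.97 to -3.33). The 3p arm had 133 CPM at P30d against 121 at E90, a log2 ratio of 0.14 (-0.02 to 0.29) whose sign turned with TMM scaling. For P7y against P30d both arms differed, 5p with 65.2 CPM at P7y against 23.5 at P30d and 3p with 27.1 against 133. Which arm differed more there depended on the scaling, with log2 ratios of 1.48 for 5p and -2.29 for 3p under CPM and of 2.54 and -1.23 under TMM.

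miR-582, whose hairpin lies in the phosphodiesterase gene PDE4D, had the pattern of miR-335, with more 3p at E90, more 5p at P30d and more 3p at P7y. Its 5p arm had 448, 92 and 58 reads and its 3p arm 637, 14.5 and 402 reads at E90, P30d and P7y. The 5p arm held 41.3% (38.3 to 44.3) of the reads at E90 and 86.8% (78.8 to 92.6) at P30d, then 12.6% (9.72 to 15.99) at P7y. Unlike in miR-335, the 3p arm carried the difference at P30d, with 68.9, 4.002 and 40.5 CPM at E90, P30d and P7y. For the 3p arm the log2 ratio was -4.16 (-5.04 to -3.40) for P30d over E90 and 3.39 (2.63 to 4.27) for P7y over P30d. The 5p arm was lower at each later stage, at 48.5, 25.4 and 5.85 CPM in the order of the stages. The P30d value of this hairpin rests on 106.5 reads in all.

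miR-28, whose hairpin lies in LPP, the gene of a focal adhesion protein, is known as a tumour suppressor in human B-cell lymphoma and had the most reads of the 8. Its arms were nearly equal at E90, with 6762 5p and 6629 3p reads, and 3p led at P30d with 993 5p and 1507 3p reads and at P7y with 4842.5 and 9838. At E90 5p held 50.5% (49.6 to 51.3) of the reads, at P30d 39.7% (37.8 to 41.7) and at P7y 33.0% (32.2 to 33.8), so the E90 interval held 50%. The balance differed by -1.05 (interval -1.12 to -0.98) for P7y minus E90. Whether the arm that led differed depended on which reads were counted. Over reads without a mismatch alone the balances were -0.09, -0.90 and -1.10 in the order of the stages, and 3p led in all 3 libraries. Over copies of the representative reads they were 0.72, -0.54 and -0.28, and 5p held 62.3% (61.1 to 63.5) at E90, 40.7% (37.7 to 43.7) at P30d and 45.1% (44.0 to 46.3) at P7y, a switch by the interval rule.

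miR-193a, a tumour suppressor that is silenced in human liver cancer, had mostly 5p reads at E90 and P7y and nearly equal arms at P30d. Its 5p arm had 61, 67 and 278 reads and its 3p arm 6, 70 and 20 reads at E90, P30d and P7y. The 5p arm held 91.0% (81.5 to 96.6) of the reads at E90 and 48.9% (40.3 to 57.6) at P30d, then 93.3% (89.8 to 95.9) at P7y. Counts of the P30d library could not show which arm led there, and over reads without a mismatch both arms had 56. The 3p arm set P30d apart, with 0.649, 19.3 and 2.02 CPM in the order of the stages. Its log2 ratio was 4.90 (3.70 to 6.39) for P30d over E90, on 6 reads at E90, and -3.26 (-4.06 to -2.53) for P7y over P30d. The paralog miR-193b did not share the pattern, with a 5p share of 1.38%, 1.40% and 0.877% at E90, P30d and P7y.

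miR-664, whose hairpin lies in the Rab regulator gene RAB3GAP2 and in human overlaps a small nucleolar RNA, had more 5p reads at E90 and arms close to equal later. It had 463 5p and 214 3p reads at E90, 49 and 51 at P30d, and at P7y 321 reads in all, of which 177 were 3p. In the order of the stages, 5p held 68.4% (64.7 to 71.9), 49.0% (38.9 to 59.2) and 44.9% (39.3 to 50.5) of the reads, and both later intervals held 50%. The balance for P7y minus E90 was -1.41 (-1.82 to -1.003), and for P7y minus P30d -0.24 (-0.92 to 0.45). Over reads without a mismatch the balance was -0.19 at P7y and 0.19 at P30d, so the arm that led at P30d depended on that choice. Over copies of the representative reads the balances were 0.996, -0.26 and -0.91 in the order of the stages, and 3p led at P7y with 66 copies against 35 of 5p, a 5p share of 34.7% (25.5 to 44.8).

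miR-885, whose 5p arm is enriched in human liver and rises in serum in liver disease, had its highest level and its highest 5p share at P30d. Its 5p arm had 87, 758 and 137 reads and its 3p arm 104, 132 and 50 reads at E90, P30d and P7y. At E90 5p held 45.5% (38.3 to 52.9) of the reads, at P30d 85.2% (82.7 to 87.4) and at P7y 73.3% (66.3 to 79.5). At E90 the interval held 50%, and with only copies of the representative reads 5p led there too, with 63 copies against 47 of 3p. Over both arms the hairpin had 246 CPM at P30d against 20.7 at E90, 11.9-fold higher (log2 ratio 3.57, 3.34 to 3.80). The 5p arm had 9.41, 209 and 13.8 CPM and the 3p arm 11.3, 36.4 and 5.04 CPM at E90, P30d and P7y. P30d was the highest library for both arms, by more in 5p than in 3p.

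**Figure D2:**
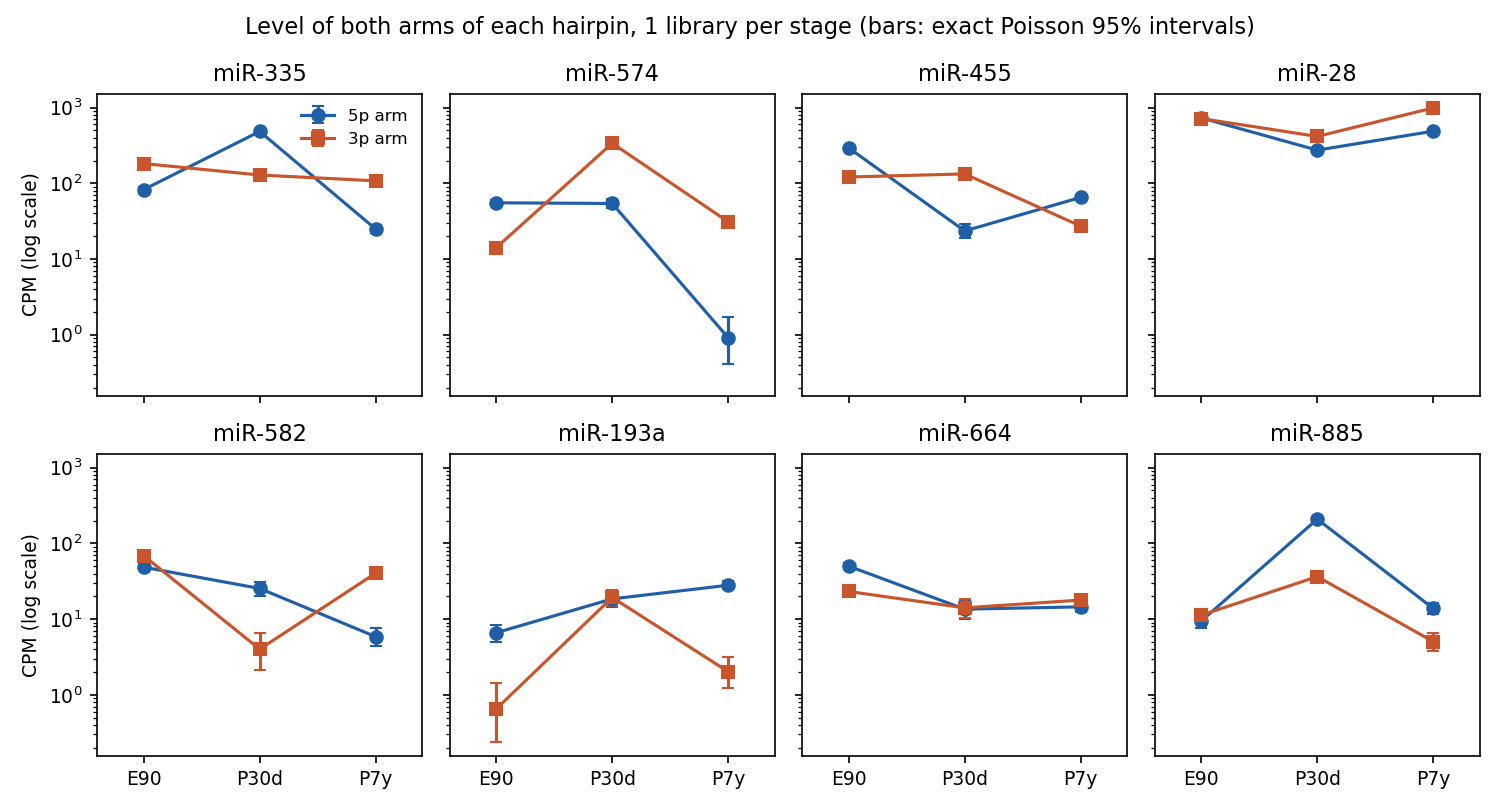
Level of the 5p arm (circles) and the 3p arm (squares) of each hairpin in CPM (y axis, log scale) in the E90, P30d and P7y libraries (x axis), with exact Poisson 95% intervals as bars. The lines cross where the more abundant arm differs, as for miR-335, where 5p stands at 82.4, 484 and 24.8 CPM and 3p at 182, 129 and 108 CPM.

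The arms of a hairpin are cut from the same transcript, so hairpin totals can differ with no difference in balance. Over both arms miR-335 had 265, 613 and 133 CPM at E90, P30d and P7y, miR-574 69.3, 392 and 31.9 CPM, and miR-582 117, 29.4 and 46.4 CPM. miR-455 had 414, 157 and 92.3 CPM, miR-193a 7.25, 37.8 and 30.0 CPM and miR-664 73.2, 27.6 and 32.4 CPM. The order of the stages was not the same for all hairpins, as P30d was the highest library for miR-335, miR-574, miR-193a and miR-885 and the lowest for miR-28, miR-582 and miR-664. Under TMM, P7y over P30d became 0.74 for miR-193a and 0.31 for miR-455 on the log2 scale, against -0.33 and -0.76 under CPM. Neighbouring levels in CPM that did not differ beyond counting error were P7y and E90 of miR-28, at 1479.9 and 1449 CPM, P7y and E90 of miR-885, at 18.9 and 20.7 CPM, and P7y and P30d of miR-664. Under TMM these log2 ratios were 0.94, 0.78 and 1.30, so the likeness of these levels holds for CPM alone. The balances of miR-28 and miR-885 differed by -1.05 and 1.70 for P7y minus E90 under either scaling. In bulk tissue, fewer cells of a type and less RNA per cell cannot be told apart.

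For P30d against E90, the span across birth, the dominant arm switched in 4 of the 8 hairpins, miR-335, miR-574, miR-455 and miR-582, beside 5.13% of all measured hairpins. The balance was higher by 1 or more in miR-335, miR-582 and miR-885 and lower by 1 or more in miR-574, miR-455, miR-193a and miR-664, beside 24.6% and 45.1% of all measured hairpins. Here and for the other pairs this count used no interval, so hairpins with few reads on an arm can enter it by counting error. Of the 16 arms, 15 had a mean of 10 CPM or more, and miR-193a-3p, which did not, is left out of the counts that follow. Of the 15 arms, 5 were higher by at least 2-fold with an interval off 0 and 4 were lower, beside 32.8% and 35.8% of the 332 arms with that mean. The higher arms were miR-335-5p, miR-574-3p, miR-193a-5p and both arms of miR-885, and the lower ones miR-455-5p, miR-28-5p, miR-582-3p and miR-664-5p. Under TMM scaling, which moved all ratios by -0.15, 5 arms were higher and 5 lower, beside 30.1% and 40.1% of all arms.

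For P7y against P30d, adult against young liver, miR-335, miR-455 and miR-582 switched, beside 3.59% of all measured hairpins. In each of the 3 the arm that led at P7y was the one that led at E90. The balance was higher by 1 or more in miR-455 and miR-193a and lower by 1 or more in miR-335, miR-574, miR-582 and miR-885, beside 41% and 34.4% of all measured hairpins. Of the 15 arms, 3 were higher by the 2-fold rule and 7 lower, beside 13.9% and 55.1% of all arms. This split depended on the scaling, because the median arm had a log2 ratio of -1.32 between these libraries and TMM scaling moved all ratios up by 1.07. Under TMM, 7 arms were higher and 7 lower, beside 28% and 32.8% of all arms. The higher arms under CPM were miR-455-5p at 1.48, miR-28-3p at 1.25 and miR-582-3p at 3.39 on the log2 scale, and these remained higher under TMM at 2.54, 2.32 and 4.46.

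For P7y against E90, the whole span, miR-574 alone of the 8 switched over all reads of an arm, beside 3.08% of all measured hairpins, and miR-28 and miR-664 did so too over representative reads, by which the number of switches was 11 of 178 hairpins in place of 6 of 195. The balance was higher by 1 or more in miR-885 and lower by 1 or more in miR-574, miR-28, miR-582 and miR-664, beside 25.1% and 34.4% of all measured hairpins. Of the 15 arms, 2 were higher and 7 lower by the 2-fold rule, beside 12.3% and 50.6% of all arms. The median arm had a log2 ratio of -1.04, TMM moved all ratios up by 0.91, and the split became 4 higher and 4 lower, beside 25.9% and 34.9% of all arms. Scaling cancels within a hairpin, so the balances are the same under CPM and TMM.

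**Figure D3:**
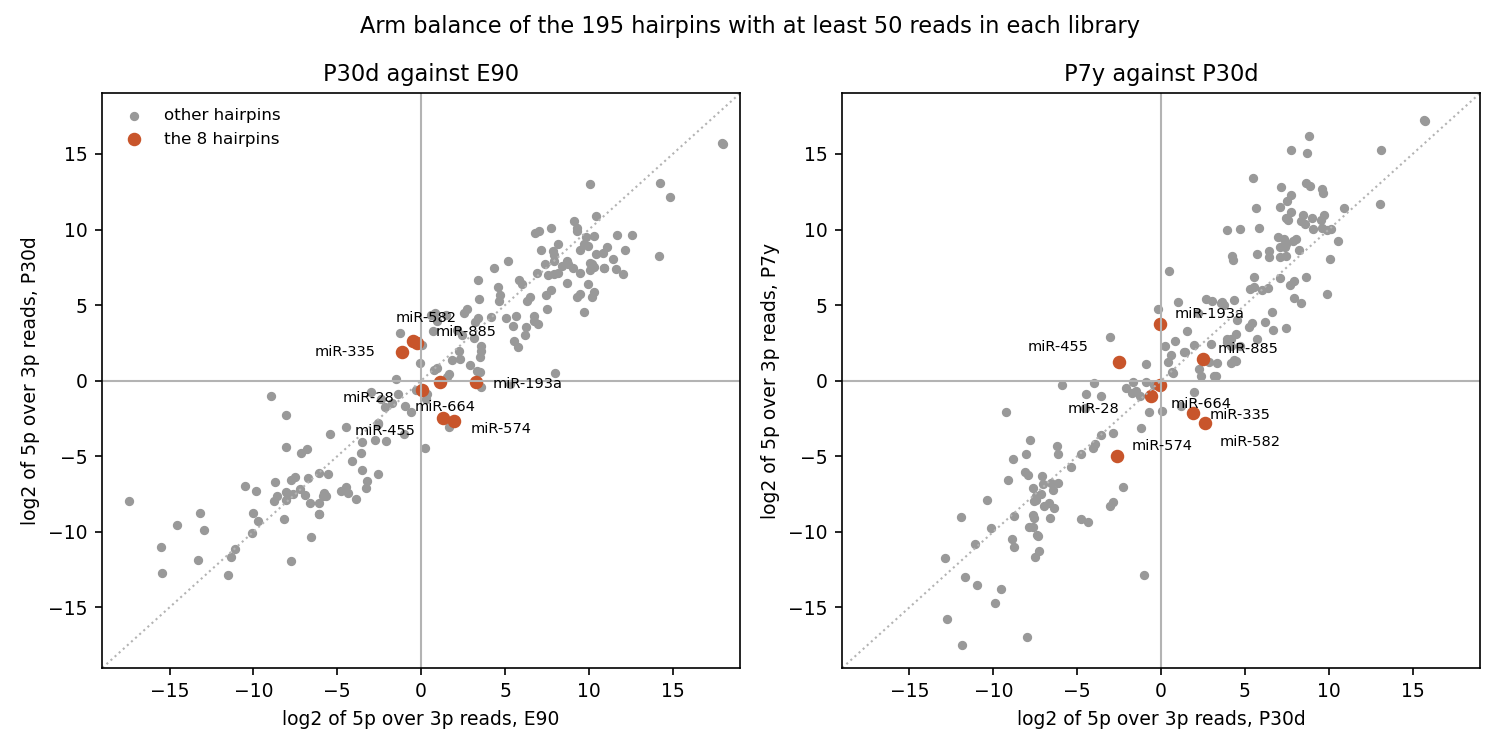
Arm balance, the log2 of 5p over 3p reads, of the 195 measured hairpins, P30d (y) against E90 (x) on the left and P7y (y) against P30d (x) on the right, with the 8 hairpins in orange, other hairpins in grey and equality as a dotted line. Hairpins in the upper left and lower right fields have the other arm ahead in the later library, and the 8 hairpins lie near the centre, where the 2 zero lines cross.

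By the range of the balance the 8 hairpins did not stand far from all 195, but the groups are not alike. Of the 195, 25 had a balance within 3 of 0 in all 3 libraries, against 6 of the 8. Where an arm has few or no reads, the range depends on depth and on the reads added to each arm. The percentiles below therefore rank the 8 mostly among hairpins with a scarce arm. The range of the balance over the 3 libraries had a median of 3.80 in the 8 hairpins (1.05 to 6.99) and of 2.75 in all 195 (25th to 75th percentile 1.63 to 4.01, maximum 11.9). By this range miR-574 stood at percentile 95.9, miR-582 at 88.2, miR-335 at 75.4 and miR-193a at 70.3, while miR-664 stood at 19.5 and miR-28 at 10.8. The 8 hairpins did lie close to equal arms, which the choice of members brings with it. The smallest distance of the balance from 0 had a median of 0.38 in the 8 and of 4.84 in all 195. In miR-28, miR-664 and miR-193a it was 0.03, 0.06 and 0.06, values just inside a turn of sign. Hairpins outside the 8 lay there too, such as miR-425 at 0.06. Just outside a turn of sign lay miR-1285, with a balance of -0.06 at P7y and lower elsewhere, and miR-151, with 0.08 at E90 and higher elsewhere.

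**Figure D4:**
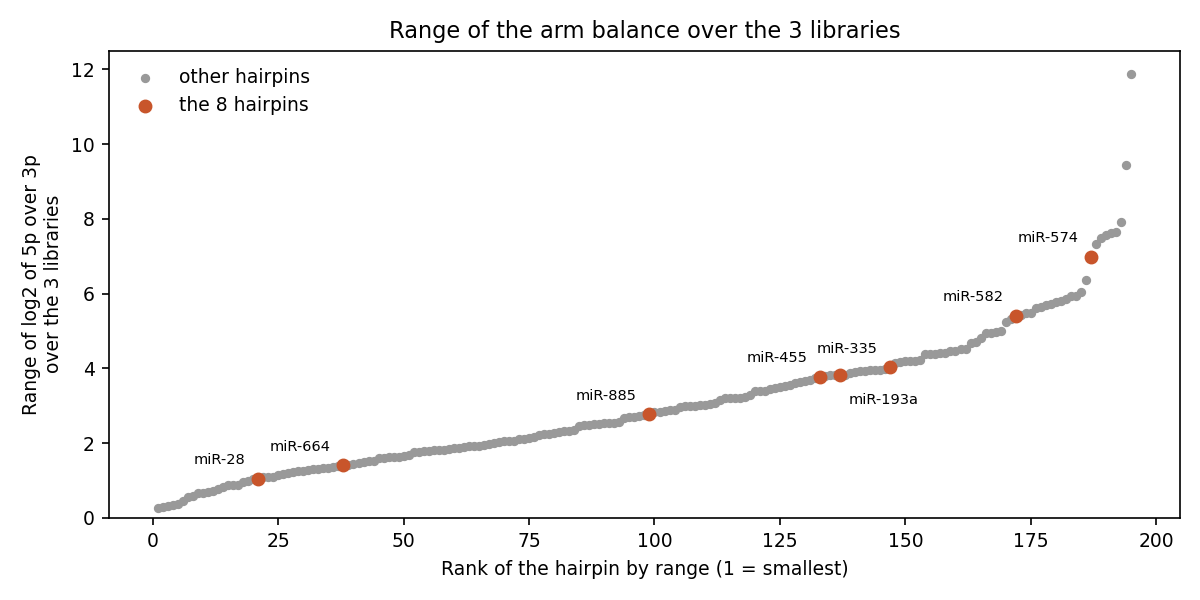
Range of the arm balance over the 3 libraries (y axis, log2) of the 195 hairpins in order of that range (x axis, rank), with the 8 hairpins in orange. They are spread along the curve from miR-28 at 1.05 to miR-574 at 6.99.

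The library that stood apart from the other pair in balance was P30d for miR-335, miR-455, miR-582 and miR-193a and E90 for miR-574, miR-28, miR-664 and miR-885. P7y was in that place for none of the 8. Over all 195 hairpins it was P30d for 45.6%, E90 for 23.1% and P7y for 31.3%. The P30d library was also the shallowest.

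The 3 balances of each hairpin were set beside those of the 187 measured hairpins outside the 8, and the nearest by Euclidean distance is named, over 3 libraries and with no test. For miR-335 and for miR-582 it was miR-425, at distances of 1.38 and 1.88, with balances of -0.06, 1.19 and -1.65 at E90, P30d and P7y. For miR-455 it was miR-130b, at 1.75, with 1.67, -3.07 and 2.87. miR-28 had the closest match, miR-199b at 0.31, with -0.28, -0.64 and -0.98, and miR-574 the farthest, miR-424 at 4.55. The others were miR-6240 for miR-193a at 1.72, miR-423 for miR-664 at 1.15 and miR-151 for miR-885 at 1.22.

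Beside the 8, the dominant arm switched by the interval rule in 9 measured hairpins, miR-130b, miR-144, miR-181c, miR-6243, miR-106b, miR-425, miR-3676, miR-424 and miR-194. Of the 9 that switched, miR-130b had the widest range, 5.94, with a 5p share of 76.1%, 10.6% and 88.2% at E90, P30d and P7y. The arm that led at each stage was the same as in miR-455. miR-181c had the P30d side of miR-335, with 29.0%, 90.0% and 54.9%. The switch of miR-194 holds only for the entry of that name, which had 392, 483 and 399 reads at E90, P30d and P7y. Separate entries named miR-194a and miR-194b had at least 25784 and 27029 reads in every library. Their balances were 18.0, 15.7 and 17.2 and 17.9, 15.7 and 17.2, so nearly all of their reads were 5p at every stage. A list of 15 hairpins taken as known for products of both arms, all of which were measured, gives a frame for the 8, although some had a scarce arm here, such as miR-193b-5p at 1.51, 17.4 and 2.12 CPM. In that list the balance of 6 hairpins was higher and of 6 lower by 1 or more for P30d against E90. For P7y against P30d 3 were higher and 6 lower, and for P7y against E90 1 was higher and 6 lower. The range of the balance had a median of 2.28 in the list. Of these 15, miR-144 and miR-425 switched. Arm shares that moved without a switch included miR-126, an endothelial miRNA, with a 5p share of 11.0%, 37.5% and 19.3%.

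The ends of the representative reads were not used to choose the hairpins. At the 5′ end, the representative reads of all 16 arms began at the reference position in all 3 libraries, so their seeds were the same at every stage. These reads were between 22.3% and 86.1% of an arm's reads, and the starts of the other reads were not analysed here. Over all measured hairpins, the first 8 bases were the same in the 3 libraries in 266 of 335 arms (79.4%). At the 3′ end, 8 of the 16 arms had the same representative read in all 3 libraries, beside 44.2% of the 335 arms. In 5 arms E90 and P7y shared a read and P30d had another, beside 17.9% of all arms, in 2 arms P7y had another, beside 14.3%, and in miR-193a-3p all 3 differed.

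The 5 arms with their own P30d form were both arms of miR-455, miR-28-3p, miR-582-3p and miR-664-3p. The 3′ forms are shown because they are the part of the mature sequence that differed between libraries, with the seed again in capitals.
miR-28-3p at E90 and P7y: cACTAGATtgtgagctcc
miR-28-3p at P30d: cACTAGATtgtgagctcctgga
miR-664-3p at E90 and P7y: tATTCATTtatctcccagcct
miR-664-3p at P30d: tATTCATTtatctcccagcctaca
miR-455-3p at E90 and P7y: gCAGTCCAtgggcatatacact
miR-455-3p at P30d: gCAGTCCAtgggcatataca
miR-582-3p at E90 and P7y: tAACCGGTtgaacaactgaaccc
miR-582-3p at P30d: tAACCGGTtgaacaactgaac

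P30d had the longer form in some arms and the shorter in others. In the order of the stages, miR-28-3p was 18, 22 and 18 bases long and miR-664-3p 21, 24 and 21, while miR-455-3p was 22, 20 and 22 bases long and miR-582-3p 23, 21 and 23. These forms were not the whole arm, as the representative read of miR-28-3p held 36.3%, 40.9% and 38.9% of the arm's reads in the order of the stages, and that of miR-582-3p at P30d was 7 copies. Those of miR-455-5p and miR-664-3p at P30d were 21 and 23 copies, and that of miR-455-3p held 26.6% of its arm's reads. miR-335-5p and miR-574-5p, which had their fewest reads at P7y, were 23 bases at E90 and P30d and 21 at P7y, the last from 5 copies for miR-574-5p. Whether the form of the 3′ end has a part in the arm balance was not tested.

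**Figure D5:**
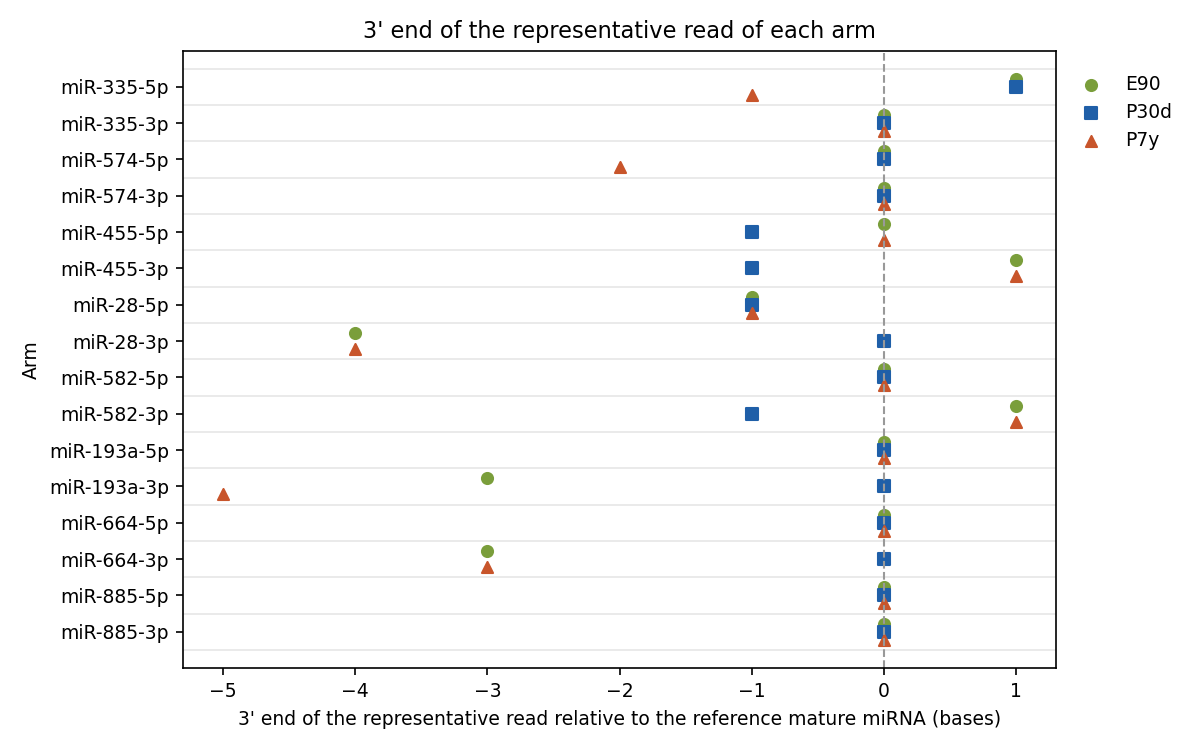
Position of the 3′ end of the representative read relative to the reference mature miRNA, in bases (x axis, negative is shorter), for the 16 arms (y axis) at E90, P30d and P7y. The end is the same in the 3 libraries for 8 arms, and miR-28-3p stands at -4 at E90 and P7y and at 0 at P30d.

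The hairpins of the 4 that switched by the interval rule are shown with both arms in capitals, as the deposited tables mark them, because the duplex between the arms is what is loaded.
miR-335 hairpin: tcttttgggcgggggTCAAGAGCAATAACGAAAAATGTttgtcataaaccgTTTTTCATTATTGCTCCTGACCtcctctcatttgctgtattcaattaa
miR-574 hairpin: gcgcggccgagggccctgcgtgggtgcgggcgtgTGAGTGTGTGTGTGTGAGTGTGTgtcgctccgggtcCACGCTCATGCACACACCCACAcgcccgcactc
miR-455 hairpin: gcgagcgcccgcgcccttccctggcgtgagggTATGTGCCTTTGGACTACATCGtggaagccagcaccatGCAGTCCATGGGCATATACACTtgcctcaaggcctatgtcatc
miR-582 hairpin: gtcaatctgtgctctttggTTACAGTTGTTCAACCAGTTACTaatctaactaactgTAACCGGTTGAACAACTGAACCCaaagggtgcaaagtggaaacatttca

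In the coordinates of the tables (Sscrofa10.2), the miR-335 hairpin spans bases 19337982 to 19338080 of chromosome 18 and the miR-193a hairpin bases 45165036 to 45165117 of chromosome 12, both on the minus strand. On the plus strand, miR-574 spans bases 31672439 to 31672541 of chromosome 8, miR-455 bases 286017358 to 286017470 of chromosome 1 and miR-582 bases 41335743 to 41335847 of chromosome 16. Also on the plus strand, miR-28 spans bases 135461289 to 135461374 of chromosome 13 and miR-664 bases 11890513 to 11890592 of chromosome 10. The tables name genome sequences, whose chromosome was read from the other pig miRNAs placed on them, and the sequence with miR-885 held no other, so its place is not given. In the RefSeq annotation of another build (Sscrofa11.1), 7 of the 8 hairpins lie within a protein-coding gene, MEST, FAM114A1, COL27A1, LPP, PDE4D, RAB3GAP2 and, for miR-885, the calcium pump gene ATP2B2. No annotated gene covers the hairpin of miR-193a, and exons and introns were not analysed here. The 8 hairpins had no common fold strength, with the folding energy given in the tables between -70.7 kcal/mol for miR-574 and -24.7 for miR-664 and a median of -46.95, against a median of -40.1 in 191 measured hairpins with a genome position.

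The labelled organ was checked against miRNA markers of cell types, whose members did not all move alike. The 4 hepatocyte markers, miR-122-5p, miR-192-5p, miR-148a-3p and miR-194-5p, were read in every library and held 31.3%, 36.5% and 28.8% of named reads at E90, P30d and P7y. Within them miR-122-5p had 128017, 213802 and 37870 CPM and miR-192-5p 109466, 109310 and 154836 CPM. miR-194-5p was counted from the entry named miR-194 alone, at 23.7, 46.4 and 19.4 CPM. The reads named miR-194a and miR-194b, at least 25784 and 27029 in every library, are not in the hepatocyte sums. Mesenchymal markers (4 of 4 read) held 5.58%, 5.95% and 11.0% in the same order, with miR-143-3p lowest and miR-199a-5p highest at P30d, at 17730 and 40212 CPM there. Endothelial markers (2 of 2) held 1.33%, 1.19% and 1.36%, and erythroid markers (4 of 4) 0.723%, 0.303% and 0.182%. miR-126-3p was lowest and miR-126-5p highest at P30d, at 7426 and 4458 CPM there. Of the erythroid markers miR-144-3p was highest at P30d, at 1195 CPM, and miR-144-5p, miR-451-5p and miR-486-5p were highest at E90. Leukocyte markers (5 of 5) held 0.0962%, 0.345% and 0.0944%, where the P30d sum was mostly miR-142-5p, at 374, 2956 and 609 CPM, while miR-223-3p was highest at E90, at 296, 50.2 and 83.1 CPM. Pancreas markers (2, 2 and 1 of 2 read) summed to 1306, 105 and 706 CPM, nearly all of it miR-375-3p, and muscle markers (3, 2 and 2 of 3 read) to 15.1, 42.0 and 30.3 CPM. Of the 2 neural markers miR-9-5p had 5.19, 4.69 and 14.5 CPM and miR-124-3p was at 0 in all libraries, which allows up to 0.325, 0.828 and 0.302 CPM at 3 reads. The part of these cell types in the arm balances was not tested.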

How the data were processed

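Small RNA of 14 to 40 nt was sequenced from 3 pig liver libraries, 1 per stage, and the libraries were grouped by the age in their labels. The authors aligned reads with known hairpins of pig and of other mammals and with the genome, per the file headers, and the build is Sscrofa10.2 per the submitters' processing notes. The deposited reads per arm are expected counts, in which a read shared by several hairpins counts in part for each, and so are the deposited reads without a mismatch. The deposited copies of the representative read are whole counts, and the GC content of a hairpin is a deposited percent. The aligner is not given in the sources used here. Reads on PCR products carry no molecular identifier.

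From these files, expected counts were summed per arm over all rows of a hairpin, without species prefix and copy number, leaving out predicted hairpins, and rounded to whole numbers for intervals. Intervals were exact Clopper-Pearson for shares, exact conditional for odds ratios and for ratios of CPM, and exact Poisson for levels. Arms were called at 2-fold or more with an interval off 0, among arms with a mean of 10 CPM (15 of the 16), and hairpins needed 50 reads in each library. For a ratio, 0 reads were taken as 3. The members and lists were chosen with earlier results of these data known. Named miRNAs are the 8 hairpins, arms that share a seed with them, hairpins whose dominant arm differs, the nearest profile of each member and a list of 15 hairpins taken as known for products of both arms, an arm of some being scarce here. RefSeq names, of Sscrofa11.1, were used only to say which gene covers a hairpin and which chromosome a genome sequence is. A sequence was given the chromosome of most pig miRNA genes found on it, for miR-455 13 of 14. For miR-574, 1 read at E90 and 1 at P30d that hold the 5p repeat are marked as 3p in the tables and were counted as marked. Calls were run on simulated binomial counts whose 5p shares lay far from equal arms. That run therefore cannot show how the calls behave near equal arms or with spread beyond counting error. Intervals were computed with SciPy 1.17.1 in Python 3.11.15 (with pandas 2.3.3 and NumPy 2.4.6), TMM with edgeR 4.0.16 and size factors with DESeq2 1.42.0 in R 4.3.3, and plots with matplotlib 3.10.9.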

Additional observations from a re-analysis of the deposited data

How the results depend on the processing

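No paired analysis was possible because each stage has 1 library. The number of hairpins that switched was 10 for P30d against E90, 7 for P7y against P30d and 6 for P7y against E90. With at least 10 reads per hairpin the first was 16, of 262 hairpins. With at least 200 reads the second was 4, of 149. With only copies of the representative read the second and the third were 11 each, of 178. With only the copy of each hairpin that has the most reads, or only known pig hairpins, the third was 2. The cause was not tested beyond the different number of hairpins. Restricting to reads without a mismatch or adding 3 reads to each arm kept all 3 counts within 1.5 times.

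Of 120 recomputed balance differences of the 8 hairpins, 119 kept their direction, the exception being miR-28 for P7y minus P30d with representative reads, at 0.26 against -0.42. With representative reads 12 of 24 differences lay outside their interval, and miR-28 and miR-664 switched beside the 4 others. The arm with more reads turned in all 8 hairpins with the most-read copy, known pig hairpins or 3 added reads, in all but miR-28 and miR-193a over reads without a mismatch, and in all but miR-885 with representative reads. Of 240 recomputed arm ratios, 224 kept their direction, and no ratio called at 2-fold changed sign under these 5 alternatives. Their size did depend on the scaling, as 34 of 48 ratios lay outside their interval under TMM and 31 under DESeq2 size factors. The number was 17 without the 5 most abundant arms of any library, 11 over reads without a mismatch and 0 with predicted hairpins in the total. Depth limits miR-193a and miR-664 most, with 67 reads at E90 and 100 at P30d.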
